A study of Mus musculus with 4 samples.

Results

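DNA methylation at CpG islands was compared between 2 of the 4 arrays of the series, namely an array labelled TiO2-H female, from an exposed pool, and that of Sham male. They are the pair of a TiO2 pool and a vehicle pool in which input DNA gave low signal at X-linked probes. The median input signal (Cy3) at probes on chromosome X, relative to that of the autosomes on the log2 scale, was -0.75 on Sham male and -0.74 on the TiO2 array, against 0.03 on each of the remaining arrays (Sham female and one labelled TiO2-H male). A value of -0.74 goes against the label "female", so the arrays of the TiO2 pools are called TiO2-H "female" and TiO2-H "male" by their labels alone, and the sex of these pools was not settled from the data. Each array carried genomic DNA pooled from the whole brains of the offspring of C57BL/6J mice on postnatal day 1. The TiO2-H pool held 2 offspring from each of 6 dams that had received 100 ug of titanium dioxide nanoparticles intratracheally in 25 uL, and the Sham pool held 2 offspring from each of 5 dams that had received the same volume of particle-free vehicle. The sample names place the treatment on gestational day 14 and the treatment protocol places it on gestational day 10.5. With 1 pooled array per group, no value below has a replicate, an SD or a test, and the spread between litters cannot be seen.

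In methylated DNA immunoprecipitation (MeDIP), an antibody against 5-methylcytosine pulls down single-stranded fragments in proportion to the density of methylated CpG sites that they carry. CpG islands are stretches rich in CpG that overlap many promoters and are mostly unmethylated in somatic tissue. Exceptions include islands of genes used only in germ cells, one parental copy of imprinted control regions and many islands of the inactive X chromosome. The level of a probe was taken as the log2 of MeDIP (Cy5) over input (Cy3) signal, relative to the median autosomal probe of the same array, so a level of 0 is that of the median probe and not the absence of methylation. Levels of different probes also depend on CpG density, so they do not rank islands by methylation.

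The promoters of 4 genes described below show the kind of sequence that the arrays interrogated. They were chosen because a probe of the measured region was annotated to lie in the 250 bases before the transcription start: Pigb and Hormad1 belonged to regions that rose, Cstf3 to a region that fell, and Sycp2 to a germline region within the limits. Each sequence covers these 250 bases, read 5′ to 3′ toward the gene from RefSeq (GRCm38.p6), and capitals mark each CpG.
Pigb, chr9:73039700-73039949, minus strand: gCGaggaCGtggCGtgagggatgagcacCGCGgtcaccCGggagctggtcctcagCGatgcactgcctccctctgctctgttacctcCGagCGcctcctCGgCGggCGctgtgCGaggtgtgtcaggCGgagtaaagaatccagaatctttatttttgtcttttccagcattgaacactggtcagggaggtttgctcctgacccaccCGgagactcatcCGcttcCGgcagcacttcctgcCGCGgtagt
Hormad1, chr3:95559427-95559676, plus strand: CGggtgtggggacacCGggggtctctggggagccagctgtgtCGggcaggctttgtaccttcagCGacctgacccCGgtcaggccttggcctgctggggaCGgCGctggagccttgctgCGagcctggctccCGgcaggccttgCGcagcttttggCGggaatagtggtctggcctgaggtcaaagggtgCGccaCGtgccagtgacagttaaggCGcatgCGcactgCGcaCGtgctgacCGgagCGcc
Cstf3, chr2:104590234-104590483, plus strand: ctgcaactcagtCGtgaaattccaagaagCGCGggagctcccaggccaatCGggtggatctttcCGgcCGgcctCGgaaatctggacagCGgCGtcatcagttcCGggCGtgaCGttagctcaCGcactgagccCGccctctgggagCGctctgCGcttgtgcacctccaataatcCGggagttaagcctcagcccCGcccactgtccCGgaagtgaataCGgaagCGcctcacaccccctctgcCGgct
Sycp2, chr2:178407659-178407908, minus strand: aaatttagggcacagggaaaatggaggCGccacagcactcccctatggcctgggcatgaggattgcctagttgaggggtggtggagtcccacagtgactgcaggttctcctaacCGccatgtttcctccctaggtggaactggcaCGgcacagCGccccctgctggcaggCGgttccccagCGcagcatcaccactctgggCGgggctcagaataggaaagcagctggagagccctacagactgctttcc
Cstf3 held 22 CpG sites, Pigb and Hormad1 held 19 each, and Sycp2 held 7, against a median of 6 over the 32851 mouse promoters of that length. Array positions below are on mm9 and cannot be set against these coordinates.

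Regions were read as runs of autosomal probes with gaps of at most 1000 bp. A kept probe had bright input (Cy3 flagged well above background) on both arrays and bright MeDIP signal (Cy5) on 1 or both, and a region was measured with 3 or more kept probes. Of 14178 autosomal runs, 7750 were measured. The difference of a region was the median, over its kept probes, of the level on TiO2-H "female" minus the level on the Sham male array. The level of a region on an array was the median of the same probes, so the difference of 2 levels need not equal the difference of the region. A region rose at 1.5-fold or more and fell at 0.67-fold or less.

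Most islands differed little between these arrays. The region differences had a median of -0.07 and quartiles of -0.27 and 0.12 on the log2 scale, and ran from -2.58 to 1.37. Of the 7750 regions, 191 rose (2.46%) and 543 fell (7.01%), 9.47% in all. The values next to the limits formed no gap, with differences of 0.59 (just inside) and 0.58 (just outside) for rises and of -0.58 on either side for falls. At the probe level, 4334 of 44173 kept probes rose (9.81%) and 8271 fell (18.7%). Only 15 rises and 111 falls reached a 2-fold difference.

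Most falls were read from regions with dim MeDIP signal on TiO2-H "female". The scanner flagged 33.0% of probes as bright in Cy5 on that array and 51.2% on Sham male. Of the kept probes, 28058 had bright Cy5 on both arrays, 15900 on the Sham male array alone and 215 on the other alone, so the filter admitted far more probes that were high on Sham male. Of the 1532 regions with no kept probe dim on TiO2-H "female", 117 rose and 67 fell. Of the 6218 regions with at least 1 such probe, 74 rose and 476 fell. A fall itself makes a probe dimmer on that array, so this division is a description only. With dim Cy5 raised to the dimmest bright signal of its array, 167 of the 543 falls and 186 of the 191 rises stayed past the limits. When each probe had to be bright on both arrays, 4359 regions remained, of which 192 rose (4.4%) and 191 fell (4.38%), and the median difference turned from -0.07 to 0.02. Without any filter on Cy5 the balance turned, with 731 rises and falls making up 36.6% of the changed regions, and after normexp background correction no region rose and 150 fell.

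**Figure D1:**
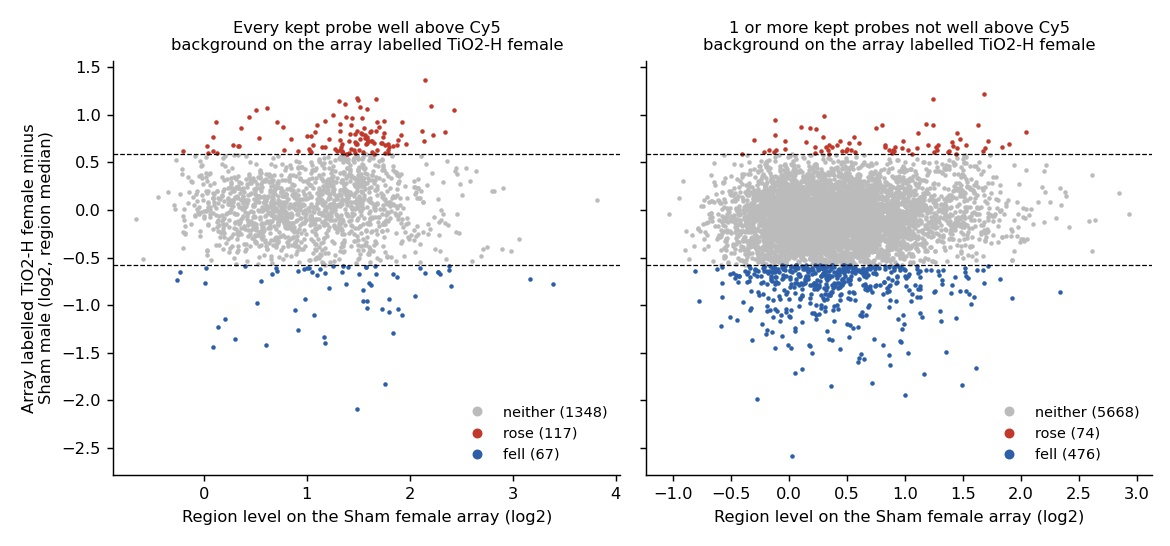
Difference of each autosomal region (TiO2-H "female" minus Sham male, log2, vertical axis) against its level on the Sham female array (log2, horizontal axis). Regions whose kept probes were all well above Cy5 background on TiO2-H "female" are on the left and the other regions on the right. Dashed lines mark 1.5-fold and 0.67-fold; the left panel holds 117 rises and 67 falls and the right panel 74 rises and 476 falls.

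Both arrays lay on different slides and at different positions (slide 1, position 1 for Sham male and slide 2, position 2 for TiO2-H "female"), so slide, position, labelled sex and exposure cannot be told apart. Sham female lay on slide 2 and TiO2-H "male" on slide 1. Input alone, which carries no methylation, differed by 1.5-fold at 14.02% of autosomal probes in this pair. The share was 11.9% to 13.5% in the other pairs across slides. Within a slide it was 1.54% (TiO2-H "female" over Sham female) and 2.61% (TiO2-H "male" over Sham male). The median difference of input was -0.05 over the rises, -0.07 over the falls and -0.08 over all measured regions, and that of MeDIP was 0.51, -0.93 and -0.29. At single rises the input difference ran from -0.55 (Mto1) to 0.66 (Son), and after loess 27 regions rose in place of 191. Among the 6 possible pairs of arrays, this one had the fewest changed regions, 9.47% against 33.7% to 60.9%. The vehicle pools alone, Sham female over Sham male, differed at 37.9% of regions (17.1% rose and 20.9% fell), more than were counted between exposures here. Those pools also differed in slide, X-linked input and spread. The median distance of autosomal probes from the array median was 0.60 on Sham female, 1.08 on Sham male and 1.04 on TiO2-H "female". Levels were not scaled for spread, so the vehicle count is no baseline for the exposure contrast.

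Rises were concentrated in regions with a high level of MeDIP over input. To sort the regions by an array outside the pair, they were divided into quintiles by their level on the Sham female array. That array shared slide 2 with TiO2-H "female", so the sort is not free of slide. The sorted regions had also passed the filter on the compared arrays. Rises numbered 11, 15, 21, 19 and 125 from the lowest to the highest quintile of 1550 regions each, which is 0.71% of the lowest and 8.06% of the highest. Falls numbered 124, 104, 112, 100 and 103, or 8% of the lowest and 6.65% of the highest. A second sort used TiO2-H "male", which shared slide 1 with Sham male. It gave 15 rises in the lowest and 118 in the highest quintile, and 191 falls in the lowest and 65 in the highest. With Cy5 bright on both arrays, rises took 2.75% of the lowest quintile and 9.40% of the highest, and falls 3.78% and 6.995%. The larger share of rises in the highest quintile was present under each of these sorts. It was not present without a filter on Cy5, when rises took 8.99% of the lowest and 8.52% of the highest quintile, or after normexp, when no region rose. The share of falls was higher in the lowest than in the highest quintile under both sorts, and lower with Cy5 bright on both arrays.

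**Figure D2:**
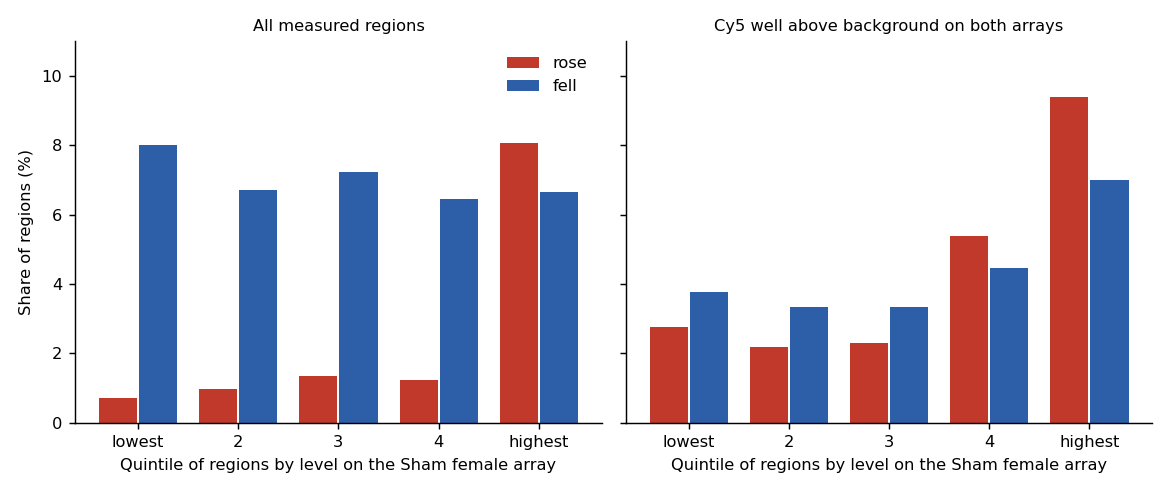
Share of regions (percent, vertical axis) that rose or fell in each quintile of regions by level on the Sham female array (horizontal axis), for all measured regions on the left and for probes bright in Cy5 on both arrays on the right. Rises reach 8.06% of the highest quintile on the left and 9.40% on the right.

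Changed regions had few probes. With exactly 3 kept probes, 3.41% of regions rose and 8.81% fell; with 6 to 9, 1.48% and 4.12%; and of 222 regions with 10 or more, 0 rose and 4 fell. All kept probes lay on the same side of 0 in 105 rises and 233 falls. The falls took from 3.59% of regions (chromosome 16) to 10.2% (chromosome 7), and the rises from 0.87% (chromosome 18) to 4.12% (chromosome 17).

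The levels of each region were also ranked over all 4 arrays. Among the rises, the Sham male array was the lowest of the 4 arrays in 118 of 191 regions (61.8%, against 6.88% of all measured regions), and TiO2-H "female" was the highest in 150 (78.5% against 36.5%). Among the falls, the Sham male array was the highest of 4 in 397 of 543 (73.1% against 45.0%). TiO2-H "female" was the lowest in 119 (21.9% against 6.94%) and TiO2-H "male" in 329 (60.6% against 55.5%). The compared arrays define the rises and falls and the levels include dim probes, so these orders are descriptions only.

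Gene symbols come from the probe annotation that the study printed, read from page images and matched to RefSeq, and cover 3024 of the 7750 regions. That annotation lists probes with a high ratio of TiO2-H male to Sham male, so it shares the Sham male array and favours probes low on it. Further names came from the study's lists of genes with raised expression and lowered methylation. Those lists favour probes that the study called lower after exposure, and they include Aldh7a1, a fall named below. Of the named regions, 4.46% rose and 4.33% fell, against 1.18% and 8.72% of unnamed ones. Counts over gene lists are read against the named regions, whose median difference was 0.00.

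Of the regions that carried a symbol, moved in all kept probes and passed the fold also after quantile normalization, the 12 highest lay at Csrnp1, Spo11, Ing1, Tenm3, Usp44, Myo10, Ptpru, Pigb, Ano8, Son, Zfp324 and Shroom3. At all 12, each kept probe was well above Cy5 background on TiO2-H "female". After normexp background correction none of the 12 passed the limit, and Ano8 and Son changed sign. The highest difference was at Csrnp1, which encodes a nuclear protein induced by axin (chromosome 9, 119883221 to 119883597, 3 kept probes). Its level was 1.89 on Sham male, 2.15 on Sham female, 2.59 on TiO2-H "male" and 3.12 on TiO2-H "female", a difference of 1.37. Because 1 of its probes was dim on Sham male, the rise is given as at least 2.31-fold.

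Shroom3 and Myo10 had the most kept probes of the 12. Shroom3, which encodes an actin-binding protein needed for neural tube closure (chromosome 5, 93370523 to 93372008), had 8 kept probes. They ranged from 1.13 to 2.45 on Sham male and from 2.35 to 3.13 on TiO2-H "female", and every probe was higher on the latter, by 0.32 to 1.46. The region levels on Sham female and on TiO2-H "male" were 1.75 and 2.52. Myo10, an unconventional myosin of filopodia (chromosome 15, 25710801 to 25711656), rose at each of 7 probes by 0.30 to 1.37. Its levels were 1.19 on Sham male, 1.52 on Sham female, 2.06 on TiO2-H "male" and 2.29 on TiO2-H "female", with a region difference of 1.08 (2.12-fold). Tenm3, a teneurin that guides the wiring of neural circuits (chromosome 8, 49313858 to 49314511), rose by 1.14 (2.20-fold) over 5 probes, from 1.16 on Sham male to 2.44, with 1.31 and 1.96 on Sham female and TiO2-H "male". In all 3 regions the Sham male array was the lowest and TiO2-H "female" the highest of the 4.

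Further rises lay at Ing1, Usp44 and Son. Ing1, a reader of histone H3 lysine 4 methylation in a deacetylase complex (chromosome 8, 11561678 to 11562025), had levels of 0.85 on Sham male, 1.67 on Sham female, 1.26 on TiO2-H "male" and 1.71 on TiO2-H "female", and rose by 1.16 (2.24-fold, 4 probes). Usp44, a deubiquitinase of the mitotic checkpoint (chromosome 10, 93308576 to 93309228), had 1.28, 2.20, 2.05 and 2.44 in the same order and rose by 1.09 (2.13-fold, 3 probes). At both, Sham male was the lowest array, and Sham female lay close to TiO2-H "female", with which it shared slide 2. At Ing1, TiO2-H "male" lay between Sham male and Sham female. Son, a nuclear speckle protein of splicing, rose by 0.97 over 6 probes, given as at least 1.61-fold since 2 probes were dim on Sham male. Its input differed by 0.66, and after loess its difference was 0.18. Its levels were 0.85, 1.53, 1.03 and 1.53.

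Ptpru, a receptor tyrosine phosphatase (chromosome 4, 131375306 to 131375669), had levels of 1.14 on Sham male, 1.59 on Sham female, 1.48 on TiO2-H "male" and 2.23 on TiO2-H "female" and rose by 1.06 (2.09-fold, 3 probes). Its annotated probes lay 18663 and 18865 bases past the transcription start, and a separate Ptpru region had a difference of 0.17 over 13 kept probes. Pigb, a mannosyltransferase that builds the glycosylphosphatidylinositol anchor (chromosome 9, 72887190 to 72887881), had 0.45, 0.51, -0.19 and 1.21 in that order and rose by 1.05 (2.07-fold, 3 probes). Both were highest on TiO2-H "female", but at Pigb the other TiO2-H array was the lowest. The same held for Ano8, a protein of contacts between endoplasmic reticulum and plasma membrane, with levels of 0.78, 0.45, 0.39 and 1.46 and a rise of 0.98 (1.97-fold). Zfp324, a zinc finger gene, had 1.36, 1.44, 2.29 and 2.34 and rose by 0.96 (at least 1.95-fold, with 1 of 4 probes dim on Sham male); there both TiO2-H arrays were high and both Sham arrays low.

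**Figure D3:**
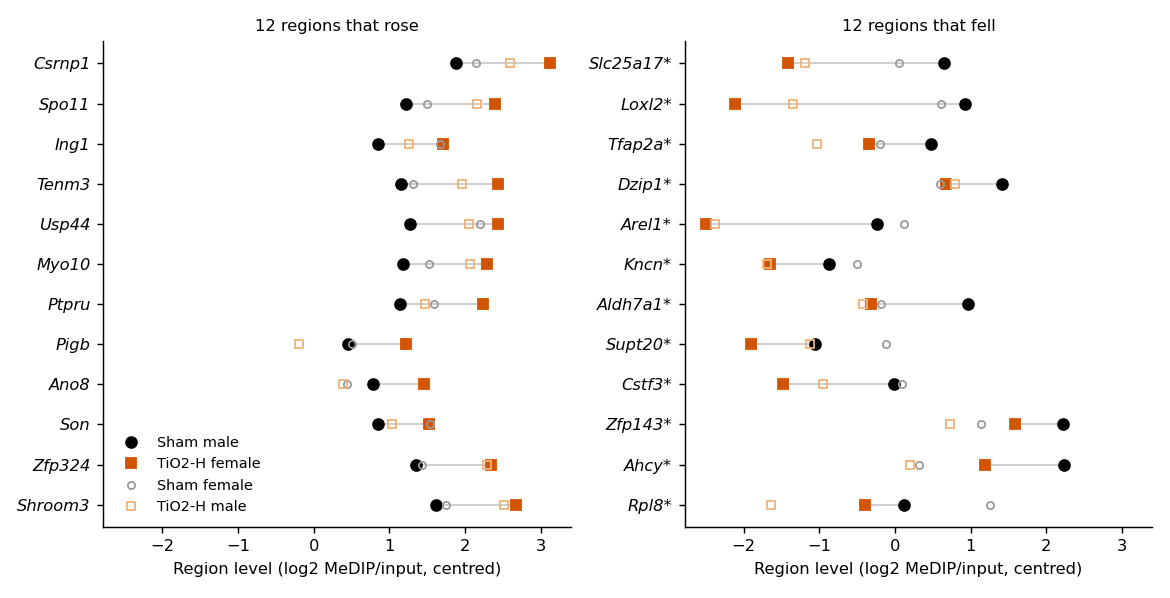
Level of the 12 named regions that rose and the 12 that fell (log2 MeDIP over input, centred, horizontal axis) on each of the 4 arrays. Filled symbols joined by a line are the compared arrays, and an asterisk marks a region with 1 or more kept probes not well above Cy5 background on TiO2-H "female". All 12 falls and none of the 12 rises carry the asterisk.

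The 12 lowest regions with a symbol lay at Slc25a17, Loxl2, Tfap2a, Dzip1, Arel1, Kncn, Aldh7a1, Supt20, Cstf3, Zfp143, Ahcy and Rpl8. Each had at least 1 kept probe dim on TiO2-H "female", so each fold is given as a bound, or not at all where the bound lost the direction. Loxl2, a lysyl oxidase that also acts on histone H3 (chromosome 14, 70008844 to 70009260), had levels of 0.93 on Sham male, 0.61 on Sham female, -1.35 on TiO2-H "male" and -2.11 on TiO2-H "female". Its difference was -1.55 over 5 probes, 4 of them dim, which gave a fall of at least 1.67-fold. With most of its probes dim, the levels on the TiO2-H arrays give no order.

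Zfp143, which encodes a transcriptional activator found at chromatin loop anchors (chromosome 7, 117204365 to 117205852), was bright at 3 of 5 probes. Its levels were 2.21, 1.13, 0.73 and 1.59 in the same order of arrays, and it fell by at least 1.74-fold (difference -0.91). Dzip1, a component of the ciliary base (chromosome 14, 119321850 to 119322454), had levels of 1.42, 0.59, 0.79 and 0.68 and fell by at least 1.51-fold (difference -1.22, 5 probes). At Zfp143 and Dzip1 the highest level was on the Sham male array. Aldh7a1, an aldehyde dehydrogenase of lysine breakdown on chromosome 18, fell by at least 1.62-fold.

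At the other lowest regions the bound lay within 1.5-fold or lost its direction. Slc25a17, a peroxisomal carrier (chromosome 15, 81190981 to 81191437), had the lowest difference of the 12, -1.71, with levels of 0.64, 0.05, -1.19 and -1.41 in the same order. With 3 of its 4 probes dim, its fall was at least 1.49-fold. Cstf3, a subunit of the mRNA cleavage stimulation factor whose promoter is printed above, had -0.01, 0.10, -0.96 and -1.47 and a bound of 1.03-fold. At both regions most kept probes were dim on TiO2-H "female", so its level is not ranked among the arrays. Rpl8, a ribosomal protein gene, had 0.12, 1.25, -1.64 and -0.39 and fell by at least 1.43-fold. Tfap2a, a transcription factor of the neural crest, and Arel1, a ubiquitin ligase, had bounds of 1.14-fold and 1.08-fold, and no fold is given for Kncn, Supt20 and Ahcy.

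**Figure D4:**
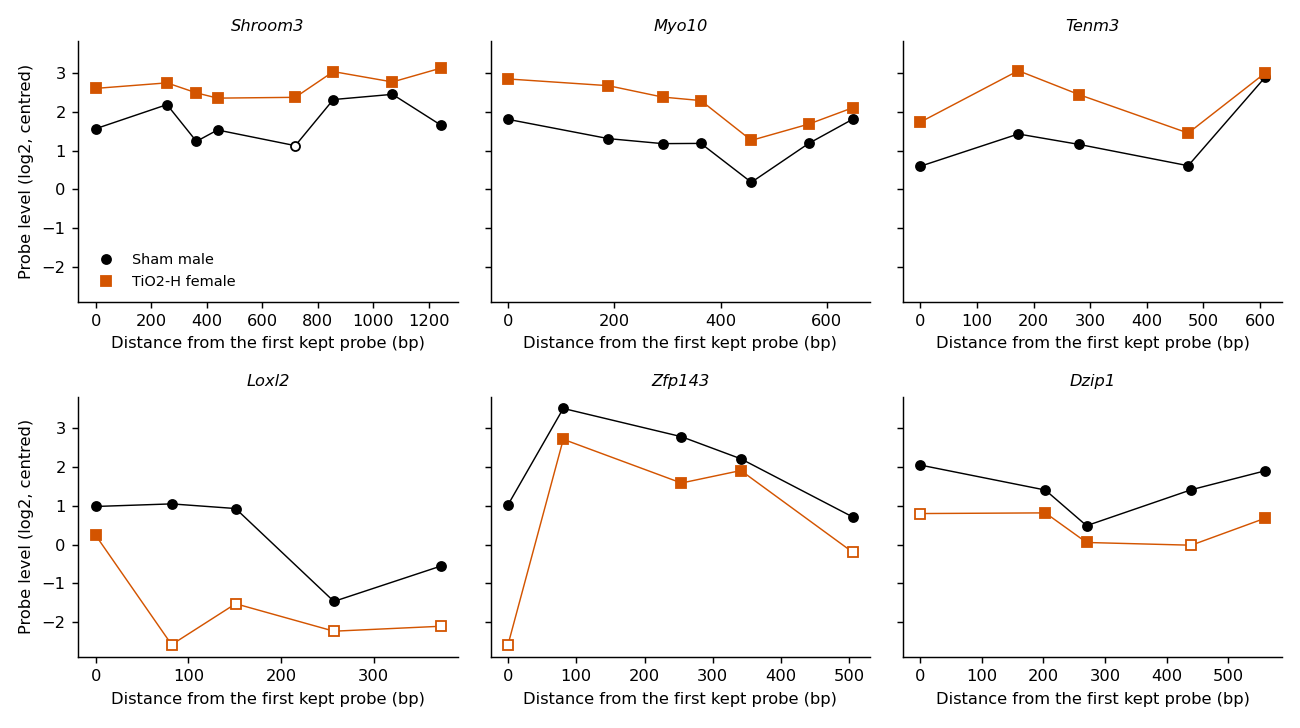
Level of each kept probe (log2, centred, vertical axis) on the Sham male array and TiO2-H "female", against the distance from the first kept probe (bp, horizontal axis), in 3 regions that rose (top) and 3 that fell (bottom). Open symbols were not well above Cy5 background on that array. The probes of Shroom3, Myo10 and Tenm3 were all higher on TiO2-H "female", while 4 of 5 probes of Loxl2 were open on it.

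Only 65 falls had no dim probe on either array, and the 2 lowest of them had no symbol. A region on chromosome 15 (103144458 to 103144755) had levels of 2.50 on Sham male, 1.48 on Sham female, 0.96 on TiO2-H "male" and 1.39 on TiO2-H "female", a difference of -2.09 over 3 probes (4.25-fold lower). Another on the same chromosome (75543650 to 75543911) had 3.17, 1.76, 0.39 and 1.53, a difference of -1.83 (3.56-fold lower). In both, the Sham male array stood above the other 3. The unnamed region on chromosome 17 at 34740094 to 34741448 had a difference of -1.98 but all 3 probes dim, and its bound lost the direction. Unnamed rises at chromosome 17 (87533147 to 87534551), chromosome 8 (48732038 to 48732509) and chromosome 3 (40512531 to 40513256) had differences of 1.15, 1.12 and 1.00. They were at least 1.65-fold, at least 2.15-fold and 2.00-fold, and the Sham male array was the lowest of 4 in each. The falls with a symbol among all 65, listed after their values were seen, were Hoxb3 (difference -0.73), Ppfia3 (-0.72), Rundc3a (-0.67), Slc39a13 (-0.61), Cd63 (-0.61) and Qser1 (-0.59). At none of them did all kept probes move the same way. The region level of Slc39a13 was 1.08 on Sham male and higher, 2.19, on TiO2-H "female". At Ppfia3 (4.16 and 4.21) and Cd63 (1.80 on each) it was not lower on TiO2-H "female" either.

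Among the gene lists with 5 or more regions, germline genes had the highest median difference, 0.14 over 17 regions, against 0.00 over all named and -0.07 over all measured regions. Of these 17 regions, 4 rose, 1 fell and 12 did neither. Of the 17 germline regions, 16 lay in the highest quintile on Sham female, in which 8.06% of all regions, named or not, rose. Over the named regions of every quintile 4.46% rose, and the share among named regions of the highest quintile was not computed. Spo11, which makes the DNA breaks of meiotic recombination (chromosome 2, 172805309 to 172805696), had levels of 1.22 on Sham male, 1.49 on Sham female, 2.15 on TiO2-H "male" and 2.40 on TiO2-H "female" and rose by 1.18, at least 2.26-fold. Hormad1 and Sycp1, proteins of the meiotic chromosome axis and synaptonemal complex, rose by 0.90 and 0.76, and Dmrtb1, a transcription factor of spermatogonia, by 0.69. At Hormad1 (levels 0.93, 1.32, 1.22 and 1.75) the bound was 1.30-fold, because 1 probe was dim on Sham male. Sycp2, a further synaptonemal complex protein (chromosome 2, 178141876 to 178142402), had 3.10, 2.24, 2.14 and 3.26 and a region difference of -0.41, within the limits. Adad1, an RNA-binding protein of spermatids, had -0.69 with 1 of 3 probes dim and a bound of the opposite sign. Ddx4, Dazl and Mael, which act in germ cell RNA control and transposon silencing, had differences of 0.14, 0.21 and 0.04.

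Imprinted genes, which are expressed from one parental copy, had a median of 0.07 over 19 regions, with 3 rises and 0 falls. Over all named regions, the reference for each list, 4.46% rose and 4.33% fell. Of the 19 regions, 7 lay in the highest quintile on Sham female and held 2 of the 3 rises. In that quintile 8.06% of all regions rose. Airn, the noncoding RNA that silences its neighbours on the paternal copy (chromosome 17, 12934260 to 12935460), had levels of 0.72 on Sham male, 1.08 on Sham female, 0.90 on TiO2-H "male" and 1.55 on TiO2-H "female" and rose by 0.82 (7 probes, 6 of them higher). Peg10, a retrotransposon-derived gene of the placenta (chromosome 6, 4697308 to 4698444), had 1.23, 0.83, 1.44 and 1.85 and rose by 0.66 with 1 of 4 probes dim on TiO2-H "female". Inpp5f rose by 0.62 with 3 of 5 probes higher, although its level was 2.07 on Sham male and 1.76 on TiO2-H "female". After quantile normalization Peg10 (0.579) and Inpp5f (0.560) no longer passed the limit. At Airn and Peg10 TiO2-H "female" was the highest of 4. The lowest imprinted regions were at Tssc4 (-0.43) and Gnas (-0.39), neither past the limit; a second Gnas region had 0.20. Grb10, Kcnq1ot1, Dlk1 and Plagl1 had differences of 0.50, 0.42, 0.35 and 0.07.

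**Figure D5:**
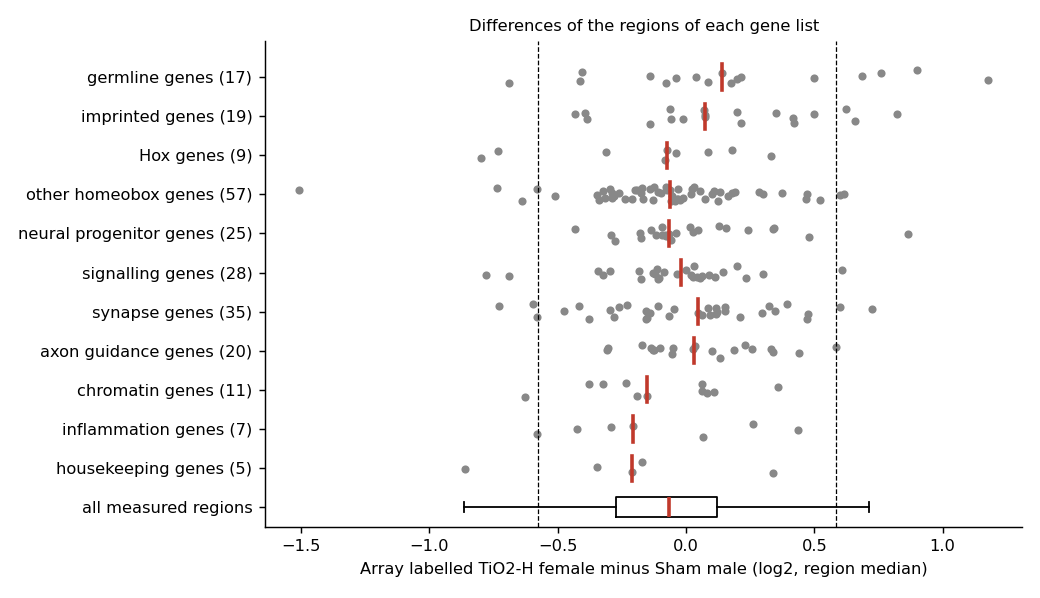
Difference of each region of 11 gene lists (TiO2-H "female" minus Sham male, log2, horizontal axis), one grey point per region, with the number of regions in brackets and the median as a red bar; points are spread vertically at random. The box below covers the quartiles of all 7750 regions, its whiskers reach the farthest region within 1.5 box lengths, and dashed lines mark 1.5-fold and 0.67-fold. The germline list has the highest median (0.14) and the housekeeping list the lowest (-0.21).

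Developmental regulators showed no common direction. Of 9 Hox regions, which pattern the body axis, 0 rose and 2 fell (median -0.07): Hoxa11 (-0.80, with 3 of 6 probes dim and a bound of the opposite sign) and Hoxb3 (-0.73, 4 bright probes, 2 higher and 2 lower). Of 57 regions of other homeobox genes, 2 rose and 4 fell (median -0.06). A region of Zfhx3 rose by 0.61, and other regions of that gene had 0.37 and 0.47. A region of Nkx2-5 rose by 0.60, with 3 of 5 probes higher and 2 dim on TiO2-H "female", and others of that gene had -0.17 and 0.13. After quantile normalization both rises lay within the limits, at 0.55 and 0.44. Meis1 had the lowest value of any list, -1.51, with a bound of the opposite sign, and Six4 had -0.74. Of 25 regions of neural progenitor genes, 1 rose and 0 fell (median -0.07); the rise was Gli2, the transcriptional effector of hedgehog signalling (chromosome 1, 120733925 to 120734672), with levels of 1.18, 1.55, 1.62 and 2.03 in the order of arrays above and a difference of 0.86 (1.82-fold, 7 bright probes, 6 of them higher). Nes, Neurod2 and Tbr1 had 0.48, -0.43 and -0.29. Of 28 regions of signalling genes, 1 rose (Wnt5b, 0.61) and 2 fell (Dkk3, -0.78, and Fgf3, -0.69, both with bounds of the opposite sign), and Tgfb3 had 0.30.

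Neuronal genes divided likewise. Of 35 regions of synapse genes, 2 rose and 3 fell (median 0.05). Grm2, a metabotropic glutamate receptor, had a region that rose by 0.73 (chromosome 9, 106553157 to 106553432) and another that fell by 0.59 on the log2 scale (106549759 to 106550272). The first had levels of 1.45 on Sham male, 1.59 on Sham female, 1.98 on TiO2-H "male" and 2.17 on TiO2-H "female", and the second 2.51, 1.57, 1.68 and 1.84. The Grm2 regions moved in opposite directions within one gene, and the second had 2 probes higher and 3 lower. Grin2d, a subunit of the NMDA receptor, had -0.73. Of 20 regions of axon guidance genes, 0 passed either limit (median 0.03), with Epha2 (0.58) and Epha8 (0.44) highest and Tenm4 (-0.31) and Efnb2 (-0.30) lowest.

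Of 11 regions of chromatin genes, 0 rose and 1 fell (median -0.15), the fall being Jarid2, a partner of the Polycomb repressive complex (levels 2.46, 1.22, 1.09 and 1.87, difference -0.63, 1 of 7 probes dim, fall at least 1.47-fold). Kdm6b had 0.11. Of 7 regions of inflammation genes, 0 rose and 1 fell (Socs2, -0.58, a bound of 1.19-fold), with Nfkb2, Keap1 and Socs1 at 0.44, 0.26 and -0.42. Of 5 housekeeping regions, 1 fell, Rpl8 above, and Ppia, Psmb2 and Gapdh had 0.34, -0.17 and -0.35. DNA methylation at marker genes of brain cell types names no cell type here: the 3 neuronal regions ran from 0.03 to 0.30 (Nefm, Elavl3 and Nefl), Sox9 of astrocytes had -0.14, Olig1 and Olig2 of the oligodendrocyte lineage had 0.16 and -0.04, Nkx2-2 fell by 0.64 on the log2 scale, and Sox17 and the Foxc1 regions of vessels had 0.09, -0.12 and -0.36. No region of the microglia or blood lists was measured. The 2 protocadherin regions, at Pcdhac2 and Pcdhga12, had 0.10 and 0.08.

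Of a list of 12 genes that the study examined further, 6 had a measured region, of which 0 rose and 0 fell. The other genes of the list had no measured region, so they are not known to lie within the limits. By enrichment with methyl-binding proteins and qPCR on individual offspring, the study reported significantly lower methylation at Cyp4f39 and Hs6st3 after exposure. Its array lists gave single probes, between arrays of the same labelled sex. The region medians below are an unlike measure in another pair of arrays and cannot be set against those results. Hs6st3, a heparan sulfate 6-sulfotransferase (chromosome 14, 119536757 to 119538466), had levels of 1.62 on Sham male, 0.89 on Sham female, 0.98 on TiO2-H "male" and 1.71 on TiO2-H "female". Its difference was -0.16 over 9 probes, 4 higher and 5 lower, and the compared arrays lay together above the other pair. Sox2, a transcription factor of neural stem cells, had -0.18 over 13 probes, Slc1a2, an astrocyte glutamate transporter, -0.26 over 4, and Synj2, a phosphoinositide phosphatase, -0.02 over 4. Of the TET dioxygenases, which oxidise 5-methylcytosine, Tet1 had 0.36 and Tet3 0.06. Cyp4f39, a cytochrome P450, had 2 short runs with 2 and 1 kept probes, too few for a region, with values of -1.37 and 0.06.

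The same exposure contrast in the remaining pools, TiO2-H "male" over Sham female, shares no array with this pair and served as a second reading. It had 21 rises (0.236%) and 2981 falls (33.4%) among 8917 regions. Of the 491 falls here that it measured, 272 fell there too (55.4%, against 27.5% of the 7196 regions measured in both), which was 13.7% of its own 1981 falls among these. Of the 179 rises here that it measured, 3 rose there (1.68%, against 0.24% of all) and 19 fell (10.6%, against 27.5%). The 3 were Peg10 (0.66 here and 0.63 there), Hnrnpm, a splicing factor (0.74 and 0.83), and Ankrd9 (0.63 and 0.69). Both contrasts set position 2 of a slide over position 1, but they cross the slides in opposite directions. In both the TiO2-H array had the dimmer Cy5 signal, with 25.3% and 59.4% of probes well above background in the second pair. Of the 543 falls here, 476 held a probe that passed the filter through Sham male alone, so the overlap of falls is a description only. With Cy5 bright on both arrays of each pair, 34 of 2705 regions fell in both pairs and 4 rose in both. The part of position, slide and dimness in the shared or opposite changes was not tested.

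On chromosome X, where both arrays had low input, 205 regions were measured, 8 rose (3.9%) and 12 fell (5.85%), with a median of -0.02. Xist, the RNA that coats the inactive X, had 4 probes on chromosome X, 3 of them kept. They read 0.09, 2.65 and 2.77 on Sham male and 1.61, 2.67 and 3.30 on TiO2-H "female", so 1 was higher by 1.53 and the others by 0.02 and 0.53. The X-linked rises with a symbol were Otud6a (0.99), Zfp275 (0.98), Tex11 (0.91, a meiosis gene), Rtl5 (0.86), Fhl1 (0.72), Xiap (0.63, an inhibitor of caspases) and Gm5126 (0.60). The falls with one were Tspyl2 (-0.81), Fmr1 (-0.80, the gene of fragile X syndrome, with a bound of 1.16-fold) and Tmem164 (-0.65).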

How the data were processed

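MeDIP DNA (Cy5) and input DNA (Cy3) of 4 pools, 1 per group, were hybridised to Agilent mouse CpG island arrays (mm9) without a dye swap. The deposited files hold spot intensity processed by the authors with Feature Extraction 10.7.3.1 (background-subtracted, dye-normalized), flags, and a deposited p-value of the log ratio from the scanner's error model, used only as an alternative filter. The authors' table of processed values was not used. Groups were taken from sample titles, since another label field read the same on all samples. The members and gene lists were chosen with earlier results of these data known.

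The log2 ratio of processed signals was centred on each array's autosomal median (85850 of 88737 probes), leaving out 5950 control spots and spots flagged as outliers. Regions, filters and limits are given with the results. Where a probe was dim, its Cy5 was set to at least the dimmest bright Cy5 signal on the same array, and the fold is given as "at least". Named regions were the 12 highest and 12 lowest with a symbol and 3 and 3 without (all kept probes moving the same way, past the limit also after quantile normalization), genes the study examined, the 2 highest and 2 lowest of each list, and Xist. Some regions that the rule names are not reported here. Regions picked otherwise are said to be so or listed as all members of a count of changed regions. Symbols were read from page images of the study's annotation, with further names from its lists of genes with lowered methylation. They were kept where RefSeq placed the gene on the same chromosome nearby, which named 5377 probes. RefSeq sequences are on GRCm38.p6.

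Alternatives were no centring, common spread, quantile, loess and normexp (offset 50) normalization with limma 3.58.1 (R 4.3.3), Cy5 alone, other filters, gaps, probe minimums, region means, fold limits and sorting arrays. Calculations used Python 3.11.15, numpy 2.4.6, pandas 2.3.3 and scipy 1.17.1, and were tested on simulated data. The number of arrays, 1 per group, limits the precision.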

Additional observations from a re-analysis of the deposited data

Results flagged for a closer look

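Of the 19 regions that rose in this pair and fell in the pair that shares no array with it (TiO2-H "male" over Sham female), 9 had all kept probes on the same side of 0 here. They are given because they passed 1.5-fold upward in one pair and 0.67-fold downward in the other, and the requirement on the probes was chosen after the values were seen. The pairs cross the slides in opposite directions, slide 2 over slide 1 here and slide 1 over slide 2 in the other. Opposite signs in the pairs therefore cannot be told apart from slide. Each pair has 1 array per group, so the difference between the pairs was not tested.

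Adamts15, a metalloprotease of the extracellular matrix, had a difference of 0.90 on the log2 scale here and -0.87 in the other pair. Ermp1, an endoplasmic reticulum metallopeptidase, had 0.82 and -0.70, and the zinc finger gene Zfp160 had 0.73 and -1.68. Gtpbp4, a GTPase of ribosome assembly, had 0.68 and -0.90. Rtn3, a reticulon of the endoplasmic reticulum, had 0.65 and -0.82. Shisal2a had 0.67 and -0.62, and Rn4.5s had 0.62 and -0.83. Without a symbol, a region on chromosome 6 (48395263 to 48395728) had 0.86 and -1.90 and one on chromosome 2 (128951482 to 128951745) had 0.81 and -0.82.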

How the results depend on the processing

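Of the 143 alternative values of the counts, shares and medians, 58 stayed close to the main value (within 1.5 times for counts, inside its 95% binomial interval over regions for shares and medians) and 85 did not. The cause was not tested for any of them. Gaps of 500 or 2000 bp moved none. The second pair is TiO2-H "male" over Sham female. Without centring, 42 regions rose and 1603 fell, falls made up 97.4% of the changed regions, the median difference was -0.32, 0 rises and 796 falls were shared with the second pair, falls took 23.4% of the lowest and 17% of the highest quintile and rises took 0.0645% of the lowest and 1.81% of the highest quintile. With both arrays scaled to a common spread, falls made up 64.4% of the changed regions, the median difference was -0.028, 0 rises were shared with the second pair, falls took 4.71% of the highest quintile and rises took 10.7% of the highest quintile. After quantile normalization, 125 regions rose, the median difference was -0.059, 1 rise was shared with the second pair, falls took 6.13% of the lowest and 4.13% of the highest quintile and rises took 0.323% of the lowest and 5.94% of the highest quintile. After loess within arrays, 27 regions rose and 111 fell, falls made up 80.4% of the changed regions, the median difference was -0.0098, 37 falls were shared with the second pair, falls took 1.35% of the lowest and 1.74% of the highest quintile and rises took 0.258% of the lowest and 0.774% of the highest quintile. After normexp background correction, 0 regions rose and 150 fell, falls made up 100% of the changed regions, the median difference was -0.0097, 0 rises and 103 falls were shared with the second pair, falls took 0.193% of the lowest and 8.9% of the highest quintile and rises took 0% of the lowest and 0% of the highest quintile. From Cy5 alone, falls made up 77.4% of the changed regions, the median difference was -0.14, 68 rises were shared with the second pair, falls took 13.4% of the highest quintile and rises took 3.16% of the highest quintile. With bright Cy5 required on both arrays, 191 regions fell, falls made up 49.9% of the changed regions, the median difference was 0.023, 34 falls were shared with the second pair, falls took 3.78% of the lowest quintile and rises took 2.75% of the lowest quintile. Without a Cy5 filter, 731 regions rose, falls made up 36.6% of the changed regions, the median difference was 0.059, 57 rises and 167 falls were shared with the second pair, falls took 2.37% of the lowest quintile and rises took 8.99% of the lowest quintile. With the scanner's log ratio p-value as a filter, falls made up 80.5% of the changed regions, the median difference was -0.12 and falls took 11.8% of the lowest and 9.35% of the highest quintile. With at least 5 kept probes, 54 regions rose and 143 fell, 1 rise and 72 falls were shared with the second pair, falls took 4.51% of the lowest quintile and rises took 0.167% of the lowest quintile. With the mean of the probes, falls made up 81.6% of the changed regions, the median difference was -0.10, 1 rise was shared with the second pair, falls took 10.1% of the lowest quintile and rises took 0.258% of the lowest quintile. At 2-fold and 0.5-fold, 15 regions rose and 111 fell, falls made up 88.1% of the changed regions, 0 rises and 48 falls were shared with the second pair, falls took 1.81% of the lowest and 1.35% of the highest quintile and rises took 0% of the lowest and 0.839% of the highest quintile. With quintiles cut on TiO2-H "male", falls took 12.3% of the lowest and 4.19% of the highest quintile.

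Of the 51 named regions past a limit, 50 of 50 stayed past it with the shorter gap and 42 of 51 after quantile normalization, 14 of 51 after loess and 3 of 51 after normexp. The sign changed after normexp at Ano8 (-0.0018), Son (-0.163), Tfap2a (0.0472), Arel1 (0.0147), Kncn (0.0509), Ahcy (0.00584), the unnamed region of chromosome 17 (0.00186), Fgf3 (0.0378), Grin2d (0.0422) and Socs2 (0.00777); without a Cy5 filter at Meis1 (0.23) and Nkx2-2 (0.18); and with bright Cy5 on both arrays at Dkk3 (0.35). 

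No paired analysis was possible because each group had 1 array, and for the same reason leaving out a replicate was not run. Input was well above background at 93.8% to 98.0% of probes of each array, but Cy5 at 25.3% to 59.4%, so most falls have no exact fold. As bounds, 167 of the 543 falls stayed past the limit, against 186 of the 191 rises.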
